A study of Mus musculus with 19 samples.

Results

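The 10 genes described here make the class I presentation route: the heavy chains H2-D1 and H2-K1, their light chain B2m, the peptide transporter genes Tap1 and Tap2, the loading factor Tapbp, the immunoproteasome subunits Psmb8, Psmb9 and Psmb10, and the regulator Nlrc5. They were chosen by name as rows of the count table, which holds 50854 genes. All 10 had a row and were among the 18652 genes tested. The libraries were made in bulk from sorted bone marrow cells of female REP mice, 8 to 12 weeks old. In these mice fluorescent reporters mark chemokine receptors. Monocytes that carried the CCR2 reporter alone (CCR2+ve) or the CCR1 and CCR2 reporters together (CCR1/2+ve) were sorted from resting mice, with 4 libraries each. The same populations came from inflamed mice, with 3 libraries of CCR1/2+ve and 4 of CCR2+ve cells. A further 4 inflamed libraries are labelled CCR1, a group whose sorting the study's methods do not describe. Inflamed mice carried osmotic pumps that released IL-3, IL-6, GM-CSF and IFN-α for 7 d. The study's methods also describe pumps filled with PBS as the vehicle control, but do not say whether the mice behind the resting libraries carried one, so the cytokines, the pump and any difference in handling between the conditions cannot be told apart. The sources do not say whether the libraries of a group came from separate mice, so p values measure the spread between these libraries, which may be technical.

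Reads on genes ran from 22268658 to 30502009 per library. The 10 monocyte markers (Csf1r, Ccr2 and Ly6c2 among them) each averaged above 10 CPM (counts per M reads) in the resting and inflamed CCR1/2+ve and CCR2+ve groups, where their summed level was 28032 to 55967 CPM per library. The inflamed CCR1 libraries stood apart from these groups. Their summed monocyte marker level was 7624 to 12416 CPM, with Ccr2 at 5.82, Csf1r at 17.7 and Ctss at 14.4 CPM on average. Lyz2, at 8278 CPM, made up most of that sum. Ly6c2 and Itgam of the same list were largely kept, at 1421 and 91.8 CPM against 1856 and 114 CPM in inflamed CCR2+ve libraries. Their 10 neutrophil markers summed to 104398 to 152966 CPM, led by Ngp at 86036 and Camp at 19966 CPM, against at most 3185 CPM in any library of the other groups. Mmp8 of the same list went the other way, at 9.1 CPM against 1606 CPM in inflamed CCR1/2+ve and 1044 CPM in inflamed CCR2+ve libraries. Comparisons that use these 4 libraries are therefore given apart from the others. None of the other comparisons was fitted on them, although they entered the scaling behind the CPM levels and the filter on low counts.

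Class I molecules present peptides of proteins made inside the cell to CD8+ T cells. The proteasome cuts those proteins, and interferons bring in the immunoproteasome subunits Psmb8, Psmb9 and Psmb10, which take the places of the constitutive catalytic subunits Psmb5, Psmb6 and Psmb7. Tap1 and Tap2 pair to carry the peptides into the endoplasmic reticulum, where tapasin (Tapbp) holds the empty heavy chain with B2m until a peptide binds. Nlrc5 is an interferon-induced regulator that acts at class I promoters. Monocytes carry class I molecules on their surface as most nucleated cells do, and interferons raise these genes in many cell types.

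On GRCm38, with the gene models of GENCODE M21, 7 of the 10 genes lie in the major histocompatibility complex of chromosome 17, where Tap1, Tap2, Psmb8 and Psmb9 adjoin each other between 34181987 and 34216321. H2-K1 spans 33996017 to 34000347, Tapbp 33915899 to 33929292 and H2-D1 35262730 to 35267499 of that chromosome. B2m is on chromosome 2 (122147686 to 122153083), and Psmb10 (105935735 to 105938444) and Nlrc5 (94434356 to 94527272) are on chromosome 8. The 250 bases before the start of H2-D1, H2-K1 and B2m are shown because these 3 genes encode the class I molecule itself and fell with inflammation, as described later. The sequences are from RefSeq (GRCm38.p6), whose table holds a promoter for 8 of the 10 genes. Capitals mark 4 short motifs searched on both strands: the kappa B motif GGGANTNNC, the core of the interferon-stimulated element AANNGAAA, the short form TGACG of the cyclic AMP element, and the CCAAT box CCAAT.
H2-D1 (chr17:35262844-35263093, plus strand): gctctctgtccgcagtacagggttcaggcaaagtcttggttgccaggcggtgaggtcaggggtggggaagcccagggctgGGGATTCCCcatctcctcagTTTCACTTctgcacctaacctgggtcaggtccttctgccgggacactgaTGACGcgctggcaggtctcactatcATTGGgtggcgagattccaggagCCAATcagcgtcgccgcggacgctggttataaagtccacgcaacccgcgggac
H2-K1 (chr17:34000348-34000597, minus strand): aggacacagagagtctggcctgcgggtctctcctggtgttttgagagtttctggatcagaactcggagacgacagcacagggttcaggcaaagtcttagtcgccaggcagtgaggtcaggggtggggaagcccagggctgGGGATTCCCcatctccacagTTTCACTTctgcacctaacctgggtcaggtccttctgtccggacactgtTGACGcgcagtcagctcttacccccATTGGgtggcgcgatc
B2m (chr2:122147437-122147686, plus strand): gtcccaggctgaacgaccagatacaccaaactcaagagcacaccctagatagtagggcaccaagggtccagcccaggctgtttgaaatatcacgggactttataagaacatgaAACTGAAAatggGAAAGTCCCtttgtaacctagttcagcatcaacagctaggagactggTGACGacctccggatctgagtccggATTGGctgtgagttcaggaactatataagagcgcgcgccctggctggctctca
The table lists 2 starts for H2-K1, of which the more upstream one was taken, and the GENCODE model of H2-D1 starts upstream of the window shown. All 4 motifs were present in these 3 promoters. In H2-D1 the first bases of the kappa B and interferon motifs were at −170 and −150 from the start, and in H2-K1 they were at −110 and −90. In B2m the order was turned, with the interferon motif at −137 and the kappa B motif at −125. The TGACG and CCAAT motifs followed in the same order in all 3 genes, at −78 and −53 in B2m. Of the 32851 promoters of that table, searched over the same length, 11.7% held the kappa B motif, 21.3% the interferon motif, 17.8% the TGACG motif and 33.8% the CCAAT motif. Among the other 5 promoters, those of Tap1 and Psmb9 held TGACG and CCAAT, that of Tapbp held CCAAT, and those of Psmb8 and Psmb10 held none of the 4 sequences. Tap1 and Psmb9 start head to head and share most of this window. These matches describe letters and not binding, which was not measured.

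Per length, B2m had the highest level of the 10 genes in every group, at 6094 ± 965 CPM per kb of exon (SD, n = 4) in resting CCR2+ve monocytes. In both resting groups the order after B2m was H2-D1, H2-K1, Tapbp, Psmb10, Psmb8, Psmb9, Tap1, Tap2 and Nlrc5. Resting CCR2+ve monocytes held H2-D1 at 2167 ± 252 and H2-K1 at 368 ± 51.6 CPM per kb, and Nlrc5 at 2.53 ± 0.791 CPM per kb. No neighbours in that order overlapped between libraries in resting CCR2+ve monocytes. In resting CCR1/2+ve monocytes Tapbp overlapped with Psmb10, and Psmb10 with Psmb8. The order changed with inflammation. In inflamed CCR2+ve monocytes Tapbp took the second place at 308 ± 56.7 CPM per kb, ahead of H2-D1 at 261 ± 75.4 CPM per kb, and each neighbour pair from Tapbp down to Psmb8 overlapped. In inflamed CCR1/2+ve monocytes every neighbour pair from Tapbp down to Tap1 overlapped, although H2-D1, H2-K1, Psmb8, Psmb9 and Tap2 kept this order in all 3 libraries. Some genes farther apart in the order overlapped too, such as Tapbp at 142 to 320 and H2-K1 at 58.4 to 168 CPM per kb. Tapbp and H2-D1 (105 to 256) did not overlap with Psmb9 at 34.9 to 51.1 or Tap1 at 12.9 to 34.3 CPM per kb. Because the counts keep reads with 1 place in the genome, levels of near copies are read low. Of the 50-base stretches of the transcript, 14.3% of those of H2-D1 and 8.11% of those of H2-K1 also occur in transcripts of other genes, most of them other class I genes. For Tapbp, Tap2 and Psmb8, 29%, 18.5% and 14.7% of the exonic bases lie within other annotated genes, nearly all on the opposite strand, and the strand used for counting is not stated.

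**Figure D1:**
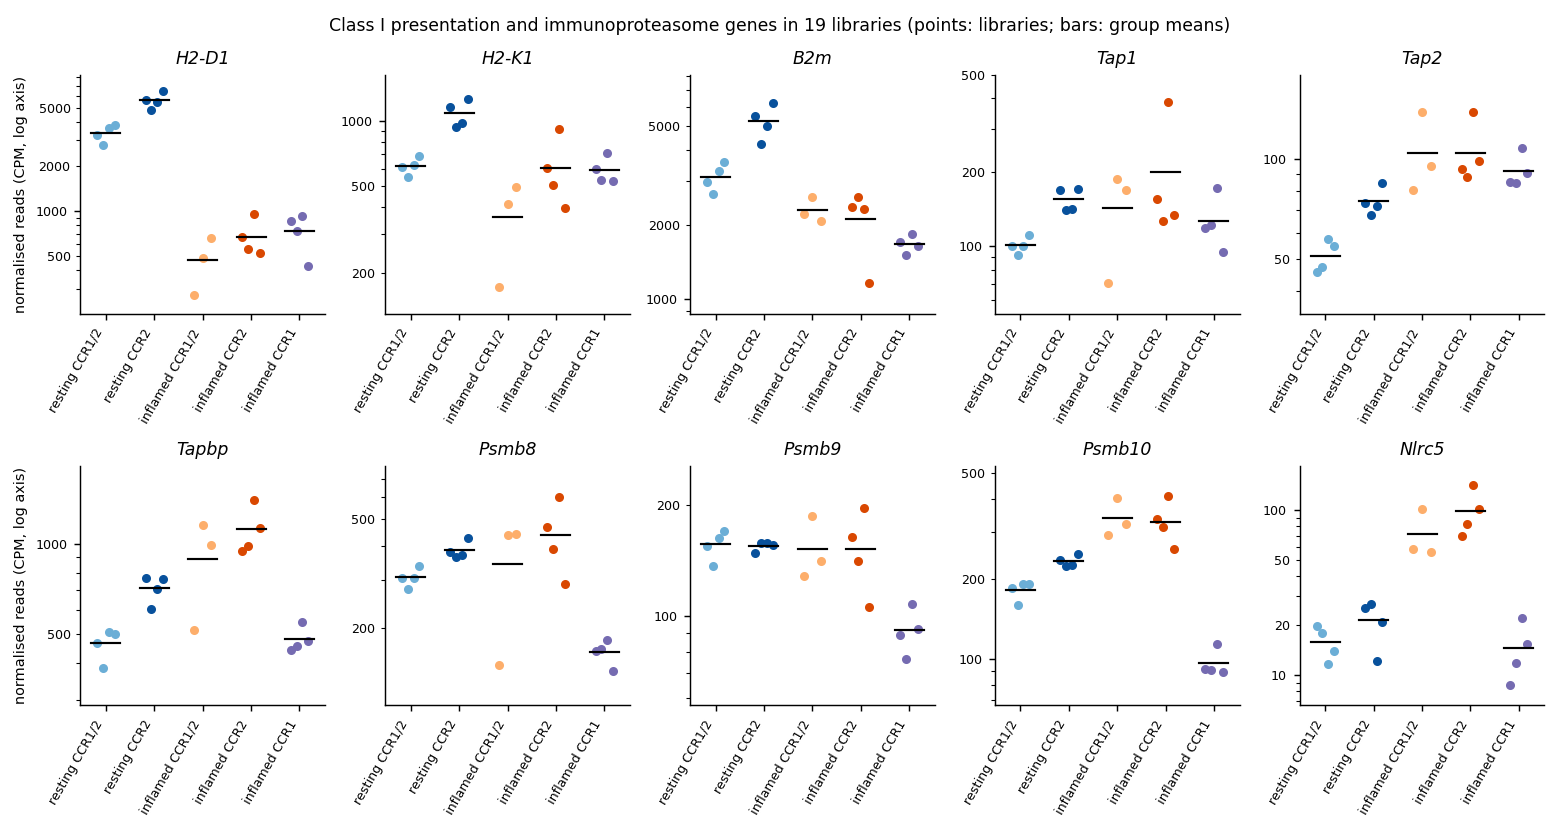
Normalised reads per library (CPM, log axis) of the 10 genes in the 5 groups, each point a library and each bar a group mean. H2-D1 lies at 2797 CPM or above in the 8 resting libraries and at 949 CPM or below in the 11 inflamed ones, while Nlrc5 lies at 55.5 CPM or above in the 7 inflamed CCR1/2+ve and CCR2+ve libraries and at 27.1 CPM or below in all others.

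At rest, CCR1/2+ve monocytes held less of 8 of the 10 genes than CCR2+ve monocytes, and Psmb9 and Nlrc5 did not pass the test (edgeR quasi-likelihood test, adjusted p below 0.05). No gene of the 10 passed as higher in CCR1/2+ve cells, where 8.44% of all genes tested passed as lower and 8.44% as higher. None, in edgeR or DESeq2, also changed by 1 or more on the log2 scale, the further criterion of a call, and 4.25% of genes tested met both criteria. The median log2 difference of the 10 genes was −0.51, against 0.03 over all genes tested. In bulk libraries, fewer cells that carry a transcript and less of it per cell cannot be told apart. H2-D1 was measured at 3269, 2797, 3631 and 3822 CPM in the 4 CCR1/2+ve libraries and at 5629, 4841, 5465 and 6419 CPM in the 4 CCR2+ve libraries. Every CCR2+ve library was above every CCR1/2+ve library. The log2 difference was −0.65 ± 0.10 (SE), with an adjusted p of 0.00103. H2-K1 followed the same pattern, at 548 to 684 CPM against 932 to 1253 CPM, a log2 difference of −0.73 ± 0.10 (adjusted p = 0.000379). B2m was at 2656 to 3588 CPM in CCR1/2+ve and 4248 to 6216 CPM in CCR2+ve libraries, a log2 difference of −0.67 ± 0.11 (adjusted p = 0.00169). The heavy chains and their light chain thus stood in nearly the same proportion in both populations, and the log2 ratio of H2-D1 to B2m per kb was −1.47 ± 0.03 (SD, n = 4) in CCR1/2+ve and −1.49 ± 0.07 in CCR2+ve monocytes.

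The transporter and loading genes moved alike at rest. Tap1 was at 92.1 to 111 CPM in CCR1/2+ve and 140 to 171 CPM in CCR2+ve libraries (log2 difference −0.55 ± 0.09, adjusted p = 0.00104). Tap2 differed by −0.47 ± 0.09 (adjusted p = 0.0029) and Tapbp by −0.54 ± 0.10 (adjusted p = 0.00211), again with no overlap between the groups. The immunoproteasome subunits differed less. Psmb8 was lower by −0.25 ± 0.08 (adjusted p = 0.0381) and Psmb10 by −0.28 ± 0.07 (adjusted p = 0.0184), and in both genes the groups did not overlap. Psmb9 was at 137 to 170 CPM against 148 to 158 CPM, and its log2 difference of 0.09 (95% interval −0.05 to 0.23) did not pass. Nlrc5 was low in both groups, at 11.6 to 19.9 and 12.1 to 27.1 CPM, and its difference of −0.36 ± 0.24 did not pass (adjusted p = 0.375). Replicate numbers pair these libraries, and with the number as a block the difference of Nlrc5 was −0.33 with an adjusted p of 0.0368. The exact permutation test over libraries gave 0.0286, the smallest value that 4 against 4 libraries allow, for each of the 8 genes that passed (0.0902 after adjustment over 60 tests). With these group sizes no gene could pass after that adjustment, so the adjusted value decides nothing. The result of Psmb8 passed only narrowly, with adjusted p values of 0.0593 to 0.0889 when CCR1/2+ve replicate 1, 2 or 3 or CCR2+ve replicate 1, 3 or 4 was left out. In 1 fit of all 19 libraries 4 of the 10 genes passed. There the log2 differences of H2-D1 (−0.73, adjusted p = 0.0639), Tap1 (−0.62, 0.24), Psmb8 (−0.33, 0.446) and Psmb10 (−0.36, 0.062) were somewhat larger but no longer passed. With a correction for GC content Psmb8 (−0.29, adjusted p = 0.157) and Psmb10 (−0.25, 0.191) did not pass, while with that correction and the replicate block 9 of the 10 genes did.

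Genes of the cell type marker lists moved with this difference. Among neutrophil genes raised in CCR1/2+ve monocytes the study lists S100a8 and S100a9. Its single-cell run of sorted CCR1/2+ve cells found no neutrophils but a cluster of dendritic cells. The neutrophil list summed to 2451 to 3128 CPM in resting CCR1/2+ve and 598 to 909 CPM in resting CCR2+ve libraries, and 6 of its 10 genes passed as higher in CCR1/2+ve cells. Over all genes tested 8.44% passed in each direction. S100a8 was at 1770 against 156 CPM and S100a9 at 325 against 20.2 CPM, while Mmp8 (451 against 548 CPM) and Ltf (3.21 against 6.69 CPM) did not pass, and Ly6g was below 1 CPM in both groups. Of the 10 monocyte markers 8 passed as lower in CCR1/2+ve cells, and their sum was 28032 to 40391 CPM against 43053 to 49481 CPM. The dendritic cell list, which holds class II genes, summed to 52.6 to 184 CPM in CCR1/2+ve and 309 to 946 CPM in CCR2+ve libraries, with Zbtb46, Xcr1 and Ccr9 below 1 CPM in both. Their part in the class I difference was not tested.

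The inflamed libraries were then set against the resting libraries of the same population. In CCR2+ve monocytes H2-D1 fell 8.72-fold, B2m 2.63-fold and H2-K1 1.88-fold with inflammation, while Nlrc5 rose 4.37-fold and Tapbp, Tap2 and Psmb10 rose by less. Tap1, Psmb8 and Psmb9 did not pass. Of the 10 genes 4 passed as higher and 3 as lower, where 21.9% and 25.9% of all genes tested did, and 3 were called with the fold cutoff, against 28.6% of genes tested. The account rests on the single genes, not on these counts. In resting CCR2+ve libraries H2-D1 was at 4841 to 6419 CPM, and in the inflamed ones at 665, 554, 949 and 520 CPM. The highest inflamed library was thus far below the lowest resting one, with a log2 fold change of −3.12 ± 0.17 (adjusted p = 1.41e-09). Of the 106 genes at 1000 CPM or more in resting CCR2+ve monocytes, 6 fell at least as far as H2-D1, and the median log2 fold change of the 106 was 0.11. H2-K1 was at 603, 503, 910 and 396 CPM in the inflamed libraries against 932 to 1253 CPM at rest, a log2 fold change of −0.91 ± 0.20 (adjusted p = 0.00201). The highest inflamed library, replicate 3, came close to the lowest resting library without reaching it. B2m was at 2350, 2578, 2305 and 1163 CPM in the inflamed libraries, all below the resting range, with a log2 fold change of −1.40 ± 0.19 (adjusted p = 3.24e-05).

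Relative to H2-K1, its near copy, H2-D1 was lower in every inflamed library than in any resting one. The log2 ratio of H2-D1 to H2-K1 per kb was 2.56 ± 0.08 (SD, n = 4) in resting CCR2+ve monocytes and 0.37 ± 0.15 in inflamed ones, and in CCR1/2+ve monocytes it went from 2.64 ± 0.08 (n = 4) to 0.62 ± 0.22 (n = 3). The ratio does not depend on how libraries are scaled. The log2 ratio of H2-D1 to B2m went from −1.49 ± 0.07 to −3.20 ± 0.49 in CCR2+ve and from −1.47 ± 0.03 to −3.95 ± 0.69 in CCR1/2+ve monocytes. That of H2-K1 to B2m had no common direction, at −4.05 ± 0.07 at rest and −3.58 ± 0.45 with inflammation in CCR2+ve monocytes and at −4.11 ± 0.07 and −4.57 ± 0.82 in CCR1/2+ve monocytes. No test was run on these 3 ratios, and they were not corrected for GC content.

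**Figure D2:**
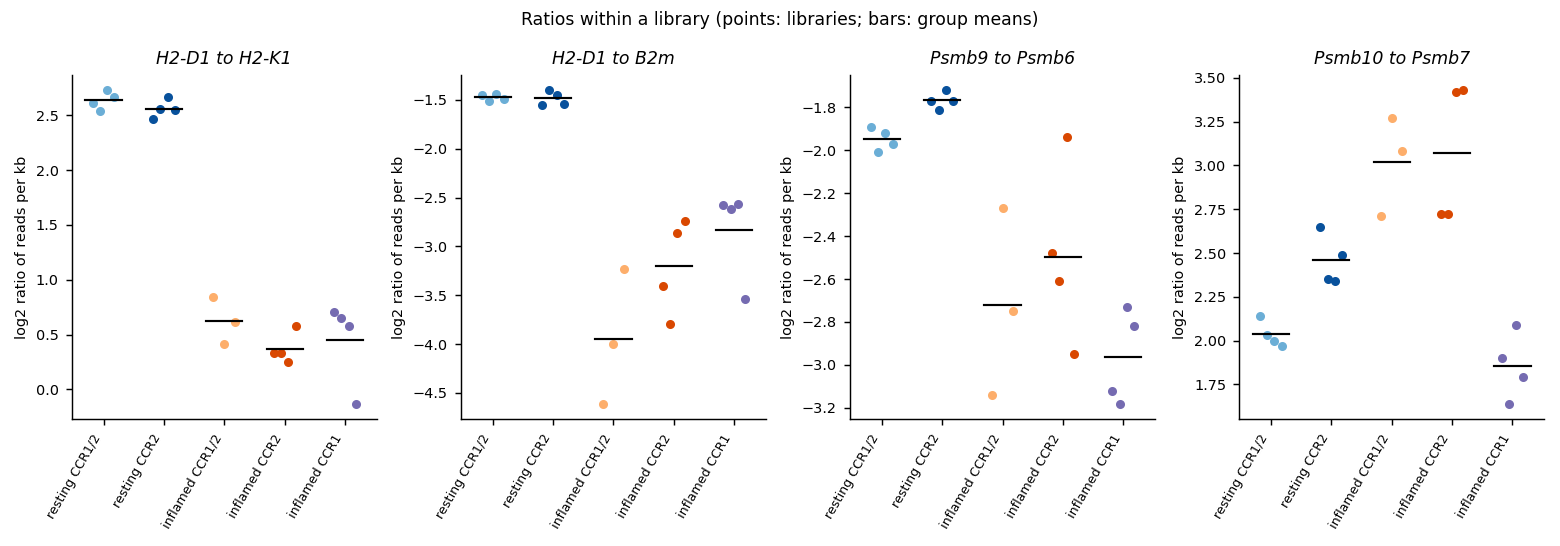
Log2 ratios of reads per kb within each library, for H2-D1 to H2-K1, H2-D1 to B2m, Psmb9 to Psmb6 and Psmb10 to Psmb7, with points for libraries and bars for group means. H2-D1 to H2-K1 lies at 2.47 to 2.73 in the 8 resting libraries and at −0.13 to 0.84 in the 11 inflamed ones.

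Nlrc5 rose in every inflamed CCR2+ve library, to 69.3, 82.5, 143 and 101 CPM from 12.1 to 27.1 CPM at rest. Its log2 fold change was 2.13 ± 0.27 (adjusted p = 3.6e-05). Tapbp was at 949 to 1402 CPM against 606 to 765 CPM (log2 fold change 0.59 ± 0.13, adjusted p = 0.00167), without overlap. Psmb10 was at 258 to 408 CPM against 223 to 247 CPM (0.42 ± 0.12, adjusted p = 0.0105), and Tap2 at 88.1 to 138 against 67.9 to 84.7 CPM (0.42 ± 0.14, adjusted p = 0.0226). These 2 differences were small, and that of Tap2 was 0.25 (adjusted p = 0.0848) without inflamed CCR2+ve replicate 3, the library with the highest level of 9 of the 10 genes among the inflamed CCR1/2+ve and CCR2+ve libraries. Among the 3 genes that did not pass, Tap1 was at 155, 126, 385 and 134 CPM in the inflamed libraries against 140 to 171 CPM at rest, so that replicate 3 alone stood above the resting range. Its log2 fold change was 0.30 (95% interval −0.37 to 0.96) and −0.24 without that library. Psmb8 differed by 0.11 (−0.21 to 0.44) and Psmb9 by −0.10 (−0.39 to 0.18).

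In CCR1/2+ve monocytes the same 7 genes passed in the same directions, 4 as higher, where 20.6% of genes tested passed, and 3 as lower, where 25.4% did. With the fold cutoff H2-D1 and Nlrc5 were called, against 28.5% of genes tested. H2-D1 was at 270, 484 and 660 CPM in the 3 inflamed libraries against 2797 to 3822 CPM at rest, a log2 fold change of −2.96 ± 0.29 (adjusted p = 2.94e-05). Of the 88 genes at 1000 CPM or more in resting CCR1/2+ve monocytes, 6 fell at least as far. Nlrc5 was at 58.3, 102 and 55.5 CPM against 11.6 to 19.9 CPM (2.04 ± 0.28, adjusted p = 0.000256). B2m was at 2062 to 2593 CPM against 2656 to 3588 CPM (−0.58 ± 0.10, adjusted p = 0.000593), so the groups came close but did not overlap. H2-K1 was at 172, 415 and 494 CPM against 548 to 684 CPM (−0.89 ± 0.31, adjusted p = 0.0405). Psmb10 was at 293 to 402 CPM against 159 to 192 CPM (0.77 ± 0.11, adjusted p = 0.000169), and Tap2 at 80.4 to 138 against 45.5 to 57.3 CPM (0.91 ± 0.16, adjusted p = 0.00083). Tapbp was at 516, 1159 and 987 CPM against 384 to 507 CPM (0.82 ± 0.24, adjusted p = 0.0207). Its lowest inflamed library, replicate 2, lay just above the resting range. No gene of the 10 that passed in either population overlapped between the conditions. This describes levels of genes already chosen by passing and is no further test, and the share of all genes without overlap was not counted. With 3 against 4 libraries the exact permutation test cannot go below 0.0571, the value of each of these 7 genes.

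Replicate 2 of the inflamed CCR1/2+ve libraries had the lowest level of 6 of the 10 genes among the inflamed CCR1/2+ve and CCR2+ve libraries. Without it 4 genes were called in place of 2, Tapbp and Tap2 joining, and Tap1 (log2 fold change 0.71, adjusted p = 5.63e-05) and Psmb8 (0.40, adjusted p = 0.00235) passed as higher. With it, Tap1 differed by 0.38 (95% interval −0.18 to 0.93), Psmb8 by 0.04 (−0.60 to 0.68) and Psmb9 by −0.16 (−0.42 to 0.09). With all libraries kept, Tap1 passed as higher with the replicate block and a GC correction (0.50, adjusted p = 0.0122). Psmb9 passed as lower with total counts (−0.37, adjusted p = 0.024), but was 0.08 with the GC correction (adjusted p = 0.734). The result of H2-K1 was weak, with adjusted p values of 0.0787 to 0.154 when any of the 4 resting libraries was left out (0.154 without replicate 1), and of 0.0632 with a correction for GC content. B2m is poorer in GC (41.2%) than the other 9 genes (52.5% to 57.1%), and with that correction its log2 fold change was −0.16 (adjusted p = 0.513). In the fit of all 19 libraries it was −0.45 (adjusted p = 0.0531). Tapbp also lost its pass without resting replicate 1, 2 or 3 or inflamed replicate 3 or 4, with adjusted p values of 0.0548 to 0.0852. Psmb9 passed as lower without inflamed replicate 3 (−0.34, adjusted p = 0.0302).

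Markers of some other cells also moved with inflammation. Over all genes tested 21.9% passed as higher and 25.9% as lower in CCR2+ve monocytes, and 20.6% and 25.4% in CCR1/2+ve monocytes. All 7 erythroid markers were called as lower in both populations, where 28.6% (CCR2+ve) and 28.5% (CCR1/2+ve) of genes tested were called in either direction. Their sum was 93.3 to 295 CPM in resting and 1.25 to 4.14 CPM in inflamed CCR2+ve libraries, and 57.8 to 178 against 1.65 to 3.56 CPM in CCR1/2+ve libraries. Of the 10 neutrophil markers 6 passed as higher in CCR2+ve monocytes, with sums of 598 to 909 CPM at rest and 1241 to 1592 CPM with inflammation. In CCR1/2+ve monocytes 5 passed as higher and 2, S100a8 and S100a9, as lower, and the sums of 2451 to 3128 and 2526 to 3185 CPM overlapped. Of the 12 dendritic cell markers 6 passed as lower and 2 as higher in CCR2+ve monocytes, with overlapping sums of 309 to 946 and 247 to 1037 CPM. In CCR1/2+ve monocytes 4 passed as lower and 3 as higher (52.6 to 184 and 100 to 157 CPM), counts near the background. The 9 tissue macrophage markers summed to 290 to 402 CPM at rest and 559 to 763 CPM with inflammation in CCR2+ve libraries, and to 225 to 305 and 635 to 650 CPM in CCR1/2+ve libraries. Adgre1 led these sums, at 314 and 538 CPM in CCR2+ve and 184 and 586 CPM in CCR1/2+ve monocytes. Of the 9, 4 passed as higher and 0 as lower in CCR2+ve monocytes. In CCR1/2+ve monocytes 3 passed as higher and 5 as lower, with a median log2 fold change of −1.06. The part of these markers in the changes of the 10 genes was not tested.

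Whether the change with inflammation differed between the populations was tested with an interaction term over the 15 libraries. None of the 10 genes passed, and B2m alone had an unadjusted p below 0.05 (0.00727), while 0.397% of all genes tested passed. DESeq2 also gave 0. For B2m the term was 0.77 ± 0.25 (95% interval 0.27 to 1.27, adjusted p = 0.195). B2m fell by 1.40 on the log2 scale in CCR2+ve and fell by 0.58 in CCR1/2+ve monocytes. Intervals of other terms were wide, for example −0.53 to 0.77 for H2-D1 and −0.98 to 0.72 for Nlrc5. The log2 fold changes in both populations are shown side by side in the plot of differences.

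**Figure D3:**
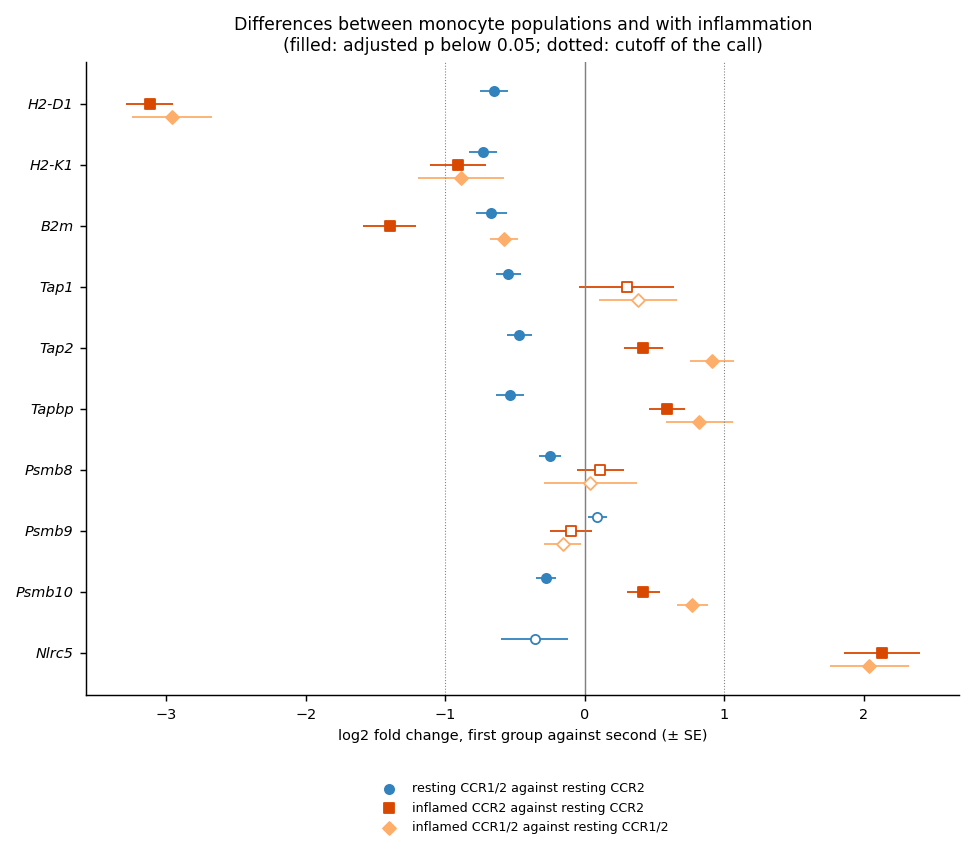
Log2 fold changes with standard errors of the 10 genes for resting CCR1/2+ve against resting CCR2+ve and for inflamed against resting libraries of each population. Filled symbols passed at an adjusted p below 0.05 and dotted lines mark the fold cutoff. H2-D1 lies at −3.12 and −2.96 and Nlrc5 at 2.13 and 2.04 with inflammation, while 8 of the 10 resting differences are filled and below 0.

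Between inflamed CCR1/2+ve and inflamed CCR2+ve monocytes, 0 of the 10 genes passed in edgeR or DESeq2 and 0 had an unadjusted p below 0.05, with 0.188% of all genes tested passing. All 10 genes overlapped between the groups. Intervals were wide. H2-K1 had the largest difference, −0.75 (95% interval −1.63 to 0.13), and H2-D1 differed by −0.52 (−1.21 to 0.17). Tap2 and Psmb9 had the smallest, each −0.01, with intervals of −0.42 to 0.39 and −0.41 to 0.39. The resting differences of H2-D1 (−0.65) and H2-K1 (−0.73) lie within these intervals, which therefore do not exclude a difference as large as that at rest. That of Tap2 (−0.47) lies below its interval, as does that of B2m (−0.67), whose inflamed difference was 0.11 (−0.40 to 0.61), although the interaction term passed for neither.

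The pathway around these genes was described by 5 lists. Their counts stand beside the shares of all genes tested, which were 8.44% in each direction at rest, 21.9% higher and 25.9% lower with inflammation in CCR2+ve monocytes, and 20.6% and 25.4% in CCR1/2+ve monocytes. Of 21 further class I heavy chains and class I-like genes, 17 were tested. At rest 7 of the 17 were lower in CCR1/2+ve monocytes and 1 higher, with a median log2 difference of −0.60 against 0.03 over all genes. The 7 were H2-Q7, H2-T22, H2-T23, H2-T24, H2-M3, Fcgrt and Hfe, and the 1 was Cd1d1, which presents lipids. With inflammation 3 rose and 5 fell in CCR2+ve monocytes (median −0.10, as over all genes) and 6 rose and 2 fell in CCR1/2+ve monocytes (median 0.41 against −0.25). Cd1d1 rose from 23.8 to 71.4 CPM in CCR2+ve monocytes (log2 fold change 1.52 ± 0.16, adjusted p = 1.82e-06). H2-Q6 fell there from 12.2 to 4.98 CPM (−1.36 ± 0.28, adjusted p = 0.000764). Hfe, a class I-like gene of iron control, rose from 30 to 79.1 CPM in CCR1/2+ve monocytes (1.26 ± 0.18, adjusted p = 0.000123). None of the tested genes outside the 10 came near the levels of H2-D1, the highest being H2-T23 at 167 CPM in resting CCR2+ve monocytes. Gm8909 and Gm11127 were called too, but stayed below 1 CPM in every group. Reads of H2-Q6, H2-Q7 and H2-T22 are hard to place, since 35%, 27.1% and 58.5% of their 50-base stretches occur in transcripts of other genes.

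Of 16 further genes of peptide loading and trimming, 15 were tested. At rest 1 of them, Sec61g, passed, as higher in CCR1/2+ve monocytes. With inflammation 6 rose and 3 fell in CCR2+ve monocytes and 7 rose and 3 fell in CCR1/2+ve monocytes. Pdia3, whose protein ERp57 works beside tapasin in the loading complex, fell from 1328 to 164 CPM in CCR2+ve (log2 fold change −3.09 ± 0.11, adjusted p = 2.28e-11) and from 1250 to 136 CPM in CCR1/2+ve monocytes (−3.32 ± 0.09, adjusted p = 1.29e-09). Sec61a1, of the channel into the endoplasmic reticulum, rose from 272 to 688 CPM and from 216 to 680 CPM. Ganab and Prkcsh, the subunits of glucosidase II, rose too, Ganab by 1.14 and 1.41 on the log2 scale. Thop1, a cytosolic peptidase, fell by 1.79 in CCR1/2+ve monocytes. The direction was thus mixed within the loading route, as it was among the 10 genes.

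Of 11 further genes of proteasome activation, inhibition and assembly, 9 were tested. The activator gene Psme3 fell from 170 to 25.1 CPM in CCR2+ve (log2 fold change −2.83 ± 0.14, adjusted p = 2.83e-10) and from 127 to 26.1 CPM in CCR1/2+ve monocytes (−2.41 ± 0.11, adjusted p = 1.6e-08). Across the list 2 of the 9 rose and 2 fell in CCR2+ve monocytes, and 3 rose and 2 fell in CCR1/2+ve monocytes, Psmg4 among the latter. Over all genes 21.9% rose and 25.9% fell in CCR2+ve monocytes, so the counts of this list were near the background. At rest 1 was higher and 2 were lower in CCR1/2+ve monocytes. Psme1, Psme2 and Psmb5 have no row in the table used here and were not analysed. Of the constitutive catalytic subunits, Psmb6 rose with inflammation in both populations (log2 fold change 0.59 in each) and was higher in resting CCR1/2+ve monocytes by 0.27. Psmb7 differed by −0.16 and −0.23 with inflammation, short of the test.

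The ratios of 2 immunoproteasome subunits to their constitutive counterparts differed in opposite directions between the conditions. With so few libraries neither could pass after adjustment. The log2 ratio of Psmb9 to Psmb6 per kb was −1.77 ± 0.04 (SD, n = 4) in resting CCR2+ve and −2.49 ± 0.42 in inflamed CCR2+ve monocytes, a difference of −0.72 with no overlap (exact permutation p = 0.0286, 0.0686 adjusted over 12 tests). That of Psmb10 to Psmb7 was 2.46 ± 0.14 at rest and 3.07 ± 0.41 with inflammation, a difference of 0.62 with no overlap and the same p values. The CCR1/2+ve libraries showed the same directions, −0.77 and 0.98, at the smallest p of 3 against 4 libraries (0.0571, adjusted 0.0857). At rest both ratios were lower in CCR1/2+ve than in CCR2+ve monocytes, by −0.18 and −0.42, without overlap (exact permutation p = 0.0286, adjusted 0.0686). No ratio passed after adjustment. The ratios were not corrected for GC content, which is 56.5% in Psmb10 and 40.8% in Psmb7, and 54.1% in Psmb9 and 51.6% in Psmb6. Of the exonic bases of Psmb7, 11.8% lie within another annotated gene.

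Of 25 genes of class I transcription and interferon signalling, 24 were tested. At rest 11 were lower in CCR1/2+ve monocytes and 1 higher (median −0.30 against 0.03), Irf1, Irf2, Stat2 and Ifngr1 among the lower ones. Ciita, the class II counterpart of Nlrc5, was called, at 1.23 against 6.38 CPM (−2.28 ± 0.61, adjusted p = 0.0258). With inflammation 5 rose and 10 fell in CCR2+ve monocytes, and 10 rose and 9 fell in CCR1/2+ve monocytes, where over all genes 21.9% rose and 25.9% fell in the former and 20.6% and 25.4% in the latter. The count of 5 was thus near the background. Tyk2, a kinase of the interferon-α receptor, rose from 55.7 to 331 CPM in CCR2+ve monocytes (2.50 ± 0.11, adjusted p = 1.74e-10). The receptor genes Ifngr2 and Ifnar2 fell there from 483 to 51.5 CPM and from 137 to 34.7 CPM (−3.30 ± 0.14 and −2.05 ± 0.14). The transcription factor gene Irf8 fell from 485 to 87.4 CPM (−2.54 ± 0.16, adjusted p = 3.89e-09). Ifngr2, Ifnar2, Irf8 and Nfyc, a subunit of the factor that binds CCAAT, were called as lower in CCR1/2+ve monocytes as well. Rfx5, of the factor that Nlrc5 joins at class I promoters, fell from 8.38 to 1.63 CPM in CCR2+ve monocytes (log2 fold change −2.42).

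The inflamed CCR1 libraries, which carry neutrophil markers as given above, held less Nlrc5, Psmb9, Psmb10 and Tapbp than either of the other inflamed groups. Psmb8 passed as lower against inflamed CCR2+ve libraries alone and B2m against inflamed CCR1/2+ve libraries alone, while H2-D1, H2-K1, Tap1 and Tap2 passed in neither comparison. H2-D1 was at 853, 736, 927 and 424 CPM and H2-K1 at 529 to 707 CPM. Both overlapped with the inflamed CCR2+ve libraries, with log2 differences of 0.13 (95% interval −0.39 to 0.65) and −0.02 (−0.45 to 0.40). Against inflamed CCR2+ve libraries 5 of the 10 genes passed, all as lower, where 25.4% of genes tested passed as lower and 22.7% as higher, and 4 were called with the fold cutoff, against 31.3%. Nlrc5 was at 8.74, 11.9, 22.2 and 15.5 CPM, all below the inflamed CCR2+ve range of 69.3 to 143 CPM (log2 difference −2.76 ± 0.31, adjusted p = 2.57e-05). Psmb10 was at 91.7, 90.7, 114 and 89.6 CPM against 258 to 408 CPM (−1.76 ± 0.13, adjusted p = 8.19e-09). Psmb8 was at 140 to 181 CPM against 291 to 601 CPM (−1.41 ± 0.18, adjusted p = 1.59e-05). Tapbp was at 440 to 545 CPM against 949 to 1402 CPM (−1.22 ± 0.13, adjusted p = 4.22e-07). Psmb9 was lower by −0.72 ± 0.16 (adjusted p = 0.00124) with some overlap. B2m, Tap1 and Tap2 did not pass, though B2m did without inflamed CCR2+ve replicate 4 (−0.52, adjusted p = 0.00023). Replicate numbers pair these groups, and with the block Tap1 differed by −0.52 with an adjusted p of 0.0177. With the block and a GC correction H2-D1 passed as higher (0.32, adjusted p = 0.0359), and 5 genes passed as lower.

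Against inflamed CCR1/2+ve libraries, a comparison that shares the inflamed CCR1 libraries with the former, 5 genes passed as lower, where 23% of genes tested did and 20.2% passed as higher, and 2 were called, against 27.7%. These were Nlrc5 (−2.31 ± 0.36, adjusted p = 0.0014) and Psmb10 (−1.82 ± 0.13, adjusted p = 6.21e-08). Psmb9 (−0.74), Tapbp (−0.90) and B2m (−0.45) passed without the fold cutoff. H2-K1 averaged 591 against 360 CPM without overlap, a log2 difference of 0.70 (95% interval −0.03 to 1.43) that did not pass. DESeq2 passed 7 genes, Psmb8 as lower and H2-K1 as higher (0.72, adjusted p = 0.0371) besides these 5. In the fit of all 19 libraries H2-K1 passed as higher too (0.71, adjusted p = 0.0475), Psmb8 passed as lower (−1.07, 0.00276) and B2m did not pass (−0.45, 0.0547). Without inflamed CCR1/2+ve replicate 2, 4 genes were called, Psmb8 (−1.45, adjusted p = 1.08e-08) and Tapbp joining, and H2-K1 passed as higher (0.36, adjusted p = 0.0267). Tapbp lost its pass without inflamed CCR1/2+ve replicate 3 (adjusted p = 0.0798) or 4 (−0.81, 0.0669) or any 1 of the 4 inflamed CCR1 libraries, such as replicate 1 (0.104).

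Other class I genes separated the inflamed CCR1 libraries from inflamed CCR2+ve monocytes in both directions, with 4 of the 17 tested higher, 9 lower and a median of −1.49, where 22.7% of all genes passed as higher and 25.4% as lower. H2-Q6 was at 52.4 against 4.98 CPM (3.40 ± 0.19, adjusted p = 1.08e-10) and H2-Q7 at 59.2 against 14.2 CPM. H2-M3, whose product presents formylated peptides, was at 16.5 against 118 CPM (−2.83 ± 0.13, adjusted p = 1.36e-11) and H2-T23 at 24.2 against 132 CPM (−2.44 ± 0.17, adjusted p = 3.04e-09). Fcgrt, the neonatal Fc receptor, was at 1.35 against 103 CPM (−6.24 ± 0.25, adjusted p = 2.2e-11). Of the 24 tested genes of class I transcription and interferon signalling, 14 were lower and 3 higher, Tyk2 at 64.1 against 331 CPM and Irf2 at 67.6 against 245 CPM among the lower ones. Of the peptide loading genes 7 of 15 were lower and 1 higher, and of the proteasome list 3 of 9 were lower and 2 higher, Pomp, the assembly factor of the proteasome, at 185 against 475 CPM among the lower ones. The log2 ratio of Psmb10 to Psmb7 was 1.85 ± 0.19 against 3.07 ± 0.41, with no overlap (exact permutation p = 0.0286, adjusted 0.0686). That of Psmb9 to Psmb6 overlapped between these groups.

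**Figure D4:**
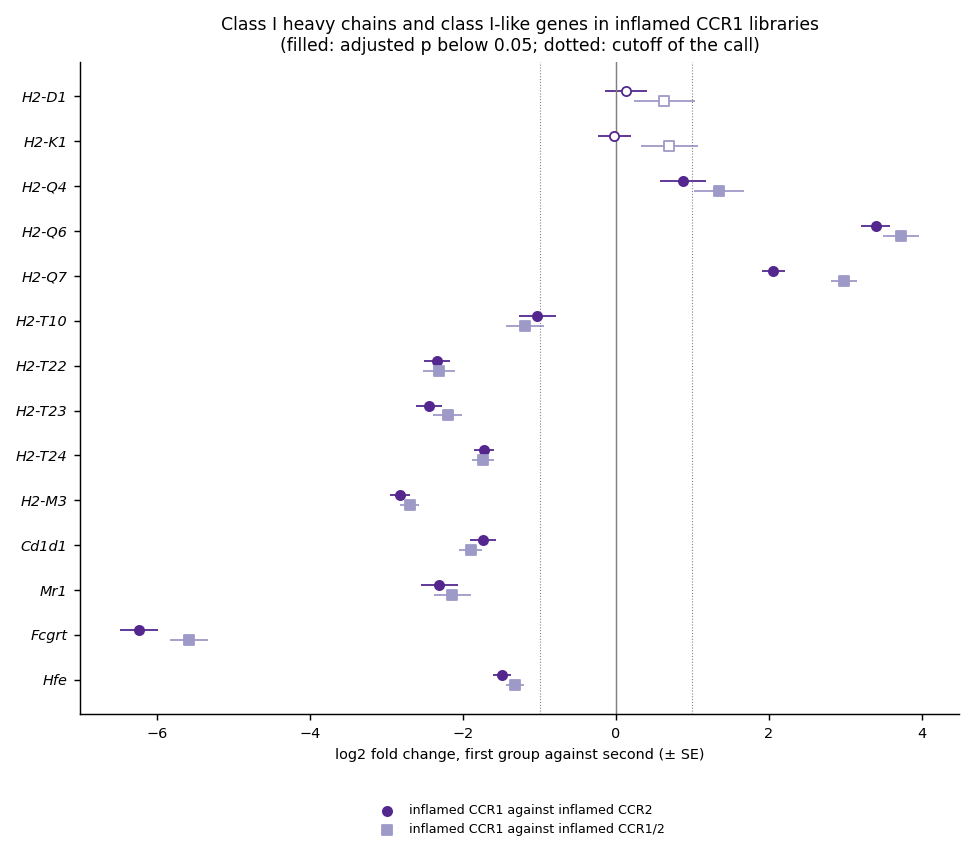
Log2 fold changes with standard errors of class I heavy chains and class I-like genes that reached 1 CPM in a group, for inflamed CCR1 libraries against inflamed CCR2+ve and CCR1/2+ve libraries. Filled symbols passed at an adjusted p below 0.05. H2-D1 and H2-K1 are open, H2-Q6 and H2-Q7 lie to the right of the cutoff and Fcgrt lies farthest to the left at −6.24 and −5.59.

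The 10 genes did not vary as one. Over the 19 libraries, log2 CPM of H2-D1 correlated with that of B2m (Pearson r = 0.83) and H2-K1 (0.77), and that of Nlrc5 with Tapbp (0.85) and Psmb10 (0.80), while H2-D1 and Nlrc5 had r = −0.52. These values describe 5 groups that differ in level and libraries that share a scaling, and carry no test. The 10 other genes whose log2 CPM was most like the mean of the 10, each gene first standardised, were Irak2, Stau1, Rnf114, Coro1b, Cblb, Tor3a, Irf1, Tmem86a, Cers6 and Tnfrsf1b. Their r was 0.90 to 0.93 over 19 libraries, out of 7675 genes with a mean of at least 10 CPM, and 0.84 to 0.90 over the 15 libraries without the inflamed CCR1 group. Irf1, the interferon-induced factor that acts at class I promoters, was at 78.2 and 120 CPM in resting and inflamed CCR2+ve monocytes, 48.2 and 102 CPM in CCR1/2+ve monocytes, and 36.9 CPM in the inflamed CCR1 libraries.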

How the data were processed

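RNA of bone marrow cells sorted in bulk was measured in 19 libraries. The authors prepared them with a kit for low input, assessed paired-end reads with fastp, aligned them to GRCm38 with STAR 2.7.10a, keeping reads that aligned to 1 place, and counted them per Ensembl gene. The deposited values are raw read counts, without normalization, and the strand counted is not given in the sources used here. The table has 20 columns of counts, and 1 column matched no sample and was not used.

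The 18652 of 50854 genes that averaged 1 or more reads per library were tested. For every comparison the groups compared were fitted on their own in edgeR 4.0.16 (R 4.3.3), using TMM factors and the robust quasi-likelihood F test. Its two-sided p values were adjusted by the Benjamini-Hochberg method across all genes tested. A gene passed at an adjusted p below 0.05 and was called if it also changed by 1 or more on the log2 scale, as in the study. The standard error is the size of the log2 fold change over the square root of F. Levels are CPM (counts per M reads) with TMM factors over all 19 libraries, and levels per kb divide by the exonic length in GENCODE M21. Exact two-sided permutation tests used log2(CPM + 0.5). Reads carry no molecular identifiers. The fit was tested on simulated data.

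Tried as alternatives were total counts, RLE size factors, DESeq2 1.42.0, no filter, filterByExpr, all libraries in 1 fit, the replicate number as a block, a GC correction, no fold cutoff, and each library left out. Replicate numbers of the titles pair the resting groups (correlations of deviations from the group means 0.313 to 0.494 over 4 pairs and 10147 genes, against −0.364 to 0.214 between other numbers) and the inflamed CCR1 and CCR2+ve groups (0.112 to 0.226 against −0.259 to 0.095), on this check alone. The 10 genes, the pathway and marker lists and the motifs were chosen with earlier results of these data known. Named outside the 10 are called genes of the lists with the smallest p, every gene of the constitutive subunit list, and the genes most like the mean of the 10. H2-Q7, H2-T22 to H2-T24, Hfe, Sec61g, Prkcsh, Psmg4, Irf1, Stat2, Ifngr1 and Rfx5 were named after their values were seen. The result of 1 single gene of the lists is not reported here.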

Additional observations from a re-analysis of the deposited data

Results flagged for a closer look

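In 2 groups of 4 libraries a single library stood far from the other 3. Tap1 in inflamed CCR2+ve monocytes was at 385 CPM in replicate 3 against 126 to 155 CPM in the others, and the gap to the nearest library was 0.887 of the range of the group. Psmb10 in the inflamed CCR1 libraries was at 114 CPM in replicate 3 against 89.6 to 91.7 CPM, with a gap of 0.913 of the range. Both are past Dixon's 95% critical value for 4 libraries, which chance alone passes in about 1 of 20 groups. With 10 genes in each of the 4 groups of this size, a few such values arise by chance alone. Both libraries were high for most of the 10 genes, since inflamed CCR2+ve replicate 3 had the highest level of 9 of them among the inflamed CCR1/2+ve and CCR2+ve libraries, and inflamed CCR1 replicate 3 of all 10 within its group.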

How the results depend on the processing

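The number of genes called among the 10 stayed within 1.5 times under the other alternatives, except as given here. With no cutoff on the fold change it was 8 at rest, 7 for inflamed against resting cells of either population and 5 for inflamed CCR1 against CCR1/2+ve libraries. With the GC correction, alone or with the replicate block, it was 5 for inflamed against resting CCR1/2+ve monocytes. With 1 library left out it ran from 2 to 4 there and from 2 to 4 for inflamed CCR1 against CCR1/2+ve libraries, 4 being the value without inflamed CCR1/2+ve replicate 2. The cause was not tested. The GC correction moved the median log2 fold change of all genes from −0.10 to 0.16 for inflamed against resting CCR2+ve and from −0.25 to 0.12 for CCR1/2+ve monocytes, and the share of higher genes among those called from 32.8% to 49.1% and from 32.1% to 54%. At rest that share went from 55.2% to 43.5%. Over all genes, inflamed CCR1/2+ve against CCR2+ve gave 27 calls in edgeR, 106 in DESeq2 and 80 with the block, and the interaction 40, 151 and 77.

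Where replicate numbers did not pair the libraries, the block ended the pass of H2-K1 for inflamed against resting CCR1/2+ve monocytes and of Tapbp for inflamed CCR1 against CCR1/2+ve libraries, and Nlrc5 passed between the inflamed populations (−0.63, adjusted p = 0.0432). Besides the values given with the results, the block changed no other call. Of 630 log2 differences of single genes under the alternatives, 570 kept their sign and side of the test, 18 lost the pass, 12 gained it and 30 changed sign. None of the 30 had passed. For inflamed against resting CCR2+ve these were Psmb9 0.06 with the GC correction, 0.02 with the replicate block with the GC correction. For inflamed against resting CCR1/2+ve these were Psmb8 −0.17 with total counts, −0.11 with the replicate block, and Psmb9 0.08 with the GC correction, 0.05 with the replicate block with the GC correction. For inflamed CCR1/2+ve against CCR2+ve these were Tap2 0.00 with no filter, 0.17 with the GC correction, 0.11 with the replicate block with the GC correction, and Psmb9 0.01 with no filter, 0.01 with filterByExpr, 0.01 with all 19 libraries in 1 fit, 0.05 with the replicate block, 0.10 with the GC correction, 0.16 with the replicate block with the GC correction. For inflamed CCR1 against CCR2+ve these were H2-K1 0.02 with no filter, 0.04 with the replicate block, 0.15 with the GC correction, 0.21 with the replicate block with the GC correction, and Tap2 0.03 with the GC correction, 0.04 with the replicate block with the GC correction. For inflamed CCR1 against CCR1/2+ve these were Tap1 0.00 with the replicate block with the GC correction. In the interaction these were H2-K1 0.02 with DESeq2, 0.02 with RLE size factors, 0.07 with all 19 libraries in 1 fit, 0.07 with the GC correction, 0.03 with the replicate block with the GC correction, and Tap1 −0.04 with total counts, and Psmb9 0.01 with the GC correction, 0.02 with the replicate block with the GC correction.

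With 1 library left out, log2 differences that changed sign ran for inflamed against resting CCR2+ve over these ranges, Tap1 −0.24 to 0.47, Psmb8 −0.09 to 0.25, Psmb9 −0.26 to 0.02. For inflamed against resting CCR1/2+ve they ran Psmb8 −0.21 to 0.40. For inflamed CCR1/2+ve against CCR2+ve they ran B2m −0.09 to 0.22, Tap1 −0.75 to 0.05, Tap2 −0.28 to 0.17, Psmb8 −0.58 to 0.00, Psmb9 −0.19 to 0.16, Psmb10 −0.12 to 0.17. For inflamed CCR1 against CCR2+ve they ran H2-K1 −0.18 to 0.25. For inflamed CCR1 against CCR1/2+ve they ran Tap1 −0.52 to 0.08, Tap2 −0.36 to 0.08. In the interaction they ran H2-D1 −0.21 to 0.40, H2-K1 −0.33 to 0.31, Tap1 −0.22 to 0.57, Tapbp −0.06 to 0.46, Psmb8 −0.36 to 0.24, Psmb9 −0.28 to 0.05, Nlrc5 −0.47 to 0.10. None of these differences passed with all libraries, and of the values that make up these ranges 1 passed, Psmb8 0.40 for inflamed against resting CCR1/2+ve without inflamed CCR1/2+ve replicate 2 (adjusted p = 0.00235).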
